A study of Homo sapiens with 72 samples.

Results

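The zinc finger genes of chromosome 19 were followed here across compounds and doses in U2OS, a human osteosarcoma cell line. They were the protein-coding genes of chromosome 19 whose GENCODE symbol is ZNF followed by a number and at most 1 letter, matched to the expression tables by Ensembl gene identifier. There were 246 such genes among the 60371 genes listed, and the expression tables held all of them. Symbols of the same pattern on other chromosomes gave 262 genes, and the tables held 1208 other protein-coding genes of chromosome 19, and both sets served for comparison.

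The cells were profiled by population RNA-seq, which reads poly(A) RNA from a whole well, after 12 h of exposure in 72 wells. DMSO, the solvent, was given alone to 18 wells, and 54 wells received 1 of 6 compounds at 100, 1000 or 10000 nM with 3 wells for each compound and dose. The compounds were triptolide, homoharringtonine, pyrazolanthrone, nilotinib, MK-2206 and miglitol. All wells held the 1 cell line. Nothing in the sources used here says that wells of a group came from separate cultures, so the p-values measure only the spread between wells, which may be technical.

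Most of these genes encode KRAB zinc finger proteins. An array of C2H2 zinc fingers binds a DNA sequence, and the KRAB box recruits the corepressor TRIM28 (KAP1), which brings in the histone methyltransferase SETDB1 and HP1 proteins and silences the bound site, often a transposable element. The genes arose by repeated duplication and lie in clusters, and their mRNAs are known as low in abundance and short-lived. Triptolide stops transcription by acting on the XPB subunit of the general transcription factor TFIIH. Homoharringtonine stops translation at its first elongation steps. Pyrazolanthrone is a JNK inhibitor, nilotinib an ABL kinase inhibitor, MK-2206 an AKT inhibitor and miglitol an intestinal glucosidase inhibitor.

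The wells held from 70767 to 68296309 expected counts, the estimated number of reads per gene summed over all genes. Under 10000000 were triptolide 100 nM well 2 with 70767, DMSO well 10 with 460014 and triptolide 1000 nM well 1 with 9628355, and these 3 wells were kept. A gene with no count in the first of them was below what that depth could show, and 43 of the 246 genes had a count there. The mesenchymal genes vimentin (VIM, 1842 ± 132 TPM, SD, n = 18 DMSO wells) and SPARC (2144 ± 479 TPM) were abundant, whereas the blood-cell gene PTPRC (0.194 ± 0.329 TPM) and the liver gene ALB (0.0050 ± 0.012 TPM) were near 0. COL1A2, also listed as a mesenchymal marker, was at 0.0889 ± 0.0640 TPM, and CDKN2A, known as silent in U2OS, was at 0.0072 ± 0.0211 TPM.

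A KRAB box was found in the protein of 211 of the 246 genes. The proteins had a median of 12 fingers, with 1 in ZNF428 and up to 36 in the longest array, against a median of 9 for the zinc finger genes of other chromosomes, of which 125 of 262 had a KRAB box. The transcripts had a median length of 3983 bases with 4 exons and a GC content of 45.7%, against 2910 bases, 8 exons and 50.1% over 19550 protein-coding genes. The 246 genes formed 16 position groups, a new group starting wherever more than 1000000 bases separated the starts of neighbouring genes. The largest group held 59 genes at the long-arm end, from 55476617 to 58481230 (GRCh38).

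Promoter sequence was available from RefSeq (GRCh38.p14) for 216 of the 246 genes. The 100 bases just before the RefSeq transcription start are shown on the gene's strand, 5′ to 3′, for 5 genes that were lower with triptolide and higher with homoharringtonine and for ZNF358 and ZNF428, which were higher with triptolide. None of these windows overlaps an annotated exon. The genes were picked by hand and not by a rule, so their windows do not compare the sets. ZNF224, which also fell with triptolide and rose with homoharringtonine, has an exon-free window with none of the motifs marked here. Capitals mark 3 motifs on either strand: CCAAT, known as the core bound by NF-Y, then GGGCGG, known as the core bound by SP factors, and also CCGGAA, known as the core bound by many ETS factors.
ZNF14, chr19:19733113-19733212, minus strand: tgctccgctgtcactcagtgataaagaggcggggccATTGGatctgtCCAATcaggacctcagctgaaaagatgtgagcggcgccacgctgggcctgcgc
ZNF441, chr19:11766900-11766999, plus strand: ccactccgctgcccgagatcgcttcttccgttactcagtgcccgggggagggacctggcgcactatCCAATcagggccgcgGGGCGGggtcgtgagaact
ZNF44, chr19:12294884-12294983, minus strand: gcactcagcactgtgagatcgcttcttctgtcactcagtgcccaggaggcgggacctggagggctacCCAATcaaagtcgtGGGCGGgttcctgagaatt
ZNF844, chr19:12064631-12064730, plus strand: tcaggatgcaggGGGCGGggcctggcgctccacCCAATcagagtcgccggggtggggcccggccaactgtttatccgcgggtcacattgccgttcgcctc
ZNF91, chr19:23395472-23395571, minus strand: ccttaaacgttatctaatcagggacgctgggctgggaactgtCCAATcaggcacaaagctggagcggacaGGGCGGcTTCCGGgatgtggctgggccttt
ZNF358, chr19:7516003-7516102, plus strand: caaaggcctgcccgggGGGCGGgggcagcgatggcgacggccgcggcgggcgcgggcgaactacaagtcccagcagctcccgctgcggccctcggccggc
ZNF428, chr19:43619630-43619729, minus strand: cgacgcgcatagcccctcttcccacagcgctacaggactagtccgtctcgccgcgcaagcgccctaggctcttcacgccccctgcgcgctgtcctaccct

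In the 250 bases before the start, CCAAT or its reverse ATTGG occurred in 110 of the 216 promoters (50.9%), against 33.0% of all 27305 promoters and 34.8% of 15345 protein-coding ones. CCGGAA or TTCCGG occurred in 88 (40.7%), against 14.8% and 19.6%. GGGCGG or CCGCCC occurred in 140 (64.8%), against 42.3% and 56.7%. The TATA core TATAAA or TTTATA occurred in only 4 (1.85%), against 11.1% and 9.23%. In 213 promoters of zinc finger genes on other chromosomes, the shares were 42.3% for CCAAT, 37.1% for CCGGAA, 57.7% for GGGCGG and 4.23% for TATAAA. The share with CCGGAA was thus nearly as high there, and differences between the sets were not tested. A match is a run of letters and was not tested as a bound site. Of the 91 genes with CCAAT that were tested with triptolide at 10000 nM, 83 were lower, with a median log2 fold change of -3.03. Of the 101 without it, 86 were lower and 2 higher, with a median of -2.30. Both groups thus moved the same way, and the difference between their medians was not tested. With homoharringtonine at 10000 nM, 66 of 94 genes with CCAAT and 69 of 103 without it were higher, with medians of 1.64 and 1.40.

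The zinc finger mRNAs that reached 1 TPM were mostly at low levels in the DMSO wells. Of the 246 genes, 192 had a mean of at least 1 TPM (TPM is a level scaled to transcript length and to the library total), 103 at least 5 TPM and 42 at least 10 TPM. The median over the 192 genes was 5.50 TPM, against 19.4 TPM over the 12404 protein-coding genes at or above 1 TPM. Without that cut the medians were closer, at 4.16 TPM against 5.57 TPM over 19550 protein-coding genes. A larger share of the zinc finger genes reached 1 TPM, 78.0% against 63.4%. ZNF146, which has fingers but no KRAB box, had the highest level at 63.6 ± 14.1 TPM (SD, n = 18). It was followed by ZNF544 at 54.1 ± 5.89 TPM and ZNF428 at 44.8 ± 11 TPM, and neighbours in this order differed by less than their combined SD. ZNF358 at 36 ± 6.97 TPM and ZNF581 at 32.9 ± 4.45 TPM came next and overlapped each other. Of these 5 genes, ZNF544 alone has a KRAB box.

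The share of all expected counts that fell in the 246 genes moved in opposite directions with triptolide and homoharringtonine. In DMSO wells it ran from 0.166% through a median of 0.200% to 0.265%. With triptolide it was 0.101% ± 0.003 (SD, n = 3) at 100 nM, 0.0456% ± 0.0017 at 1000 nM and 0.0417% ± 0.0004 at 10000 nM. With homoharringtonine it was 0.387% ± 0.044, 0.514% ± 0.113 and 0.612% ± 0.039 at the same doses. Every triptolide well lay below and every homoharringtonine well above the range of the 18 DMSO wells. The lowest and highest wells of the other 4 compounds were at 0.159% and 0.258%.

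**Figure D1:**
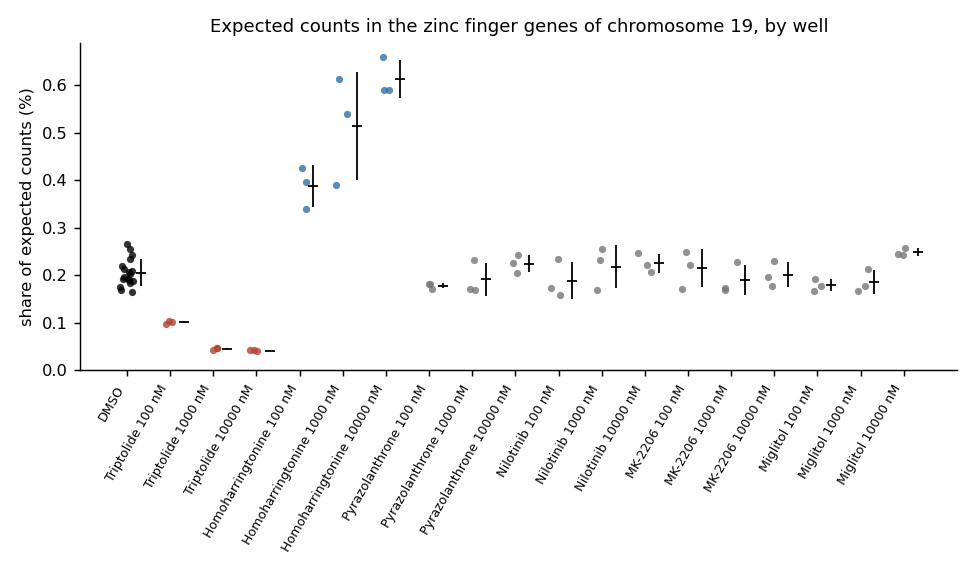
Share of each well's expected counts (%) that fell in the 246 zinc finger genes of chromosome 19, by compound and dose, with 1 point per well and the mean ± SD beside each group (n = 18 for DMSO and 3 for every other group). Triptolide wells sit at or below 0.103%, DMSO wells between 0.166% and 0.265%, and homoharringtonine wells at or above 0.338%.

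Triptolide lowered most of the zinc finger mRNAs that could be tested. A gene was called when its adjusted p was under 0.05 and its fold change was past 2-fold, a log2(Fold Change) of 1, in edgeR's quasi-likelihood test with Benjamini-Hochberg adjustment over all genes tested. At 10000 nM, 187 of the 214 zinc finger genes that passed the count filter were lower and 3 were higher, with a median log2(Fold Change) of -2.66. Over all 18536 genes tested, 29.3% were lower and 17.5% higher, with a median of -0.12. At 1000 nM, 182 of 214 were lower and 3 higher (median -2.73), against 30.1% lower and 14.1% higher over all genes. At 100 nM, 90 of 215 were lower and 4 higher (median -0.82), against 21.1% and 11.2%. That median was -0.46 in a fit that adjusts for the GC slope of the libraries (64 lower) and -2.45 when scaled to mitochondrial mRNAs. Across the 3 doses, 88 of 214 genes tested at all of them were lower at every dose, in fits that share the DMSO wells. In the wells of at least 10000000 counts, the 3 triptolide wells at 10000 nM lay below every DMSO well for 182 of 214 genes, against 31.5% of all genes tested. With all 18 DMSO wells, the shallow one included, they did so for 141 of 214 genes, against 24.6%.

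Fold changes here are relative within a well, and bulk RNA cannot tell fewer cells of a type from less RNA per cell. The 13 mitochondrial mRNAs, which are made by a separate polymerase, took 0.243% ± 0.058 of counts in DMSO wells (SD, n = 18) and 1.09% ± 0.07 with triptolide at 10000 nM (n = 3). Scaled to those mRNAs, the median of all genes tested at 10000 nM was -2.93 and that of the zinc finger genes -5.43, and all 214 tested were called lower, so the difference between the medians was -2.50, against -2.54 in the scaling used throughout. With library sizes alone the medians were -0.70 and -3.23, with 1 called higher and 200 lower. A change of scaling shifts all genes of a well by nearly the same amount. The difference between the medians could therefore hardly change and does not test the scaling, whereas the number called higher fell.

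**Figure D2:**
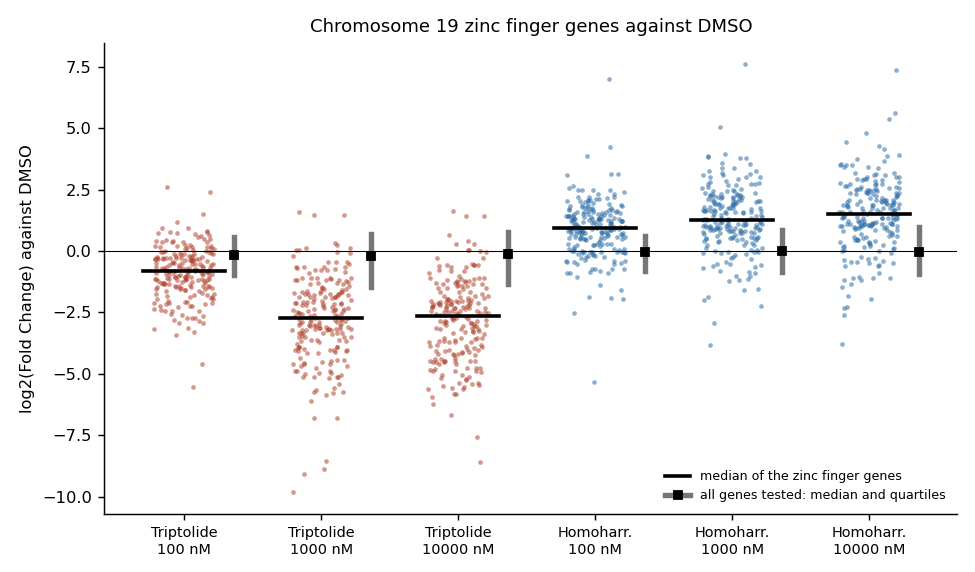
log2(Fold Change) against DMSO of each tested zinc finger gene of chromosome 19 (points), with their median (black line), and the median and quartiles of all genes tested (square and grey bar), for 3 doses each of triptolide and homoharringtonine. The medians are -0.82, -2.73 and -2.66 with triptolide and 0.94, 1.27 and 1.51 with homoharringtonine; fitted values of genes at 0 to 3 counts in a group depend on the prior count.

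The genes with the largest falls at 10000 nM fell to a handful of reads or none. ZNF14, a KRAB gene with 17 fingers, had 0 counts in all 3 wells, against 0.000, 1.11 and 2.38 CPM (CPM is the expected count scaled to the TMM-normalised library size) in the lowest, median and highest DMSO wells, the lowest being the shallow well 10. Its pooled DMSO rate, which is all DMSO counts over all normalised DMSO library sizes, was 1.38 CPM. With a floor of 3 counts over the group, ZNF14 was at least 35.9-fold below that rate. Folds from counts, here and below, use each gene's pooled DMSO rate and not the median. ZNF823, with 15 fingers, had 1 count over the 3 wells, against a DMSO median of 2.77 CPM and a pooled rate of 3.26 CPM. Its level was 255-fold below the pooled rate, with a 95% exact Poisson interval of 45.8 to 10073. ZNF443 also had 1 count, a 138-fold lower level with an interval of 24.7 to 5446. These intervals cover counting error only.

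ZNF543 was among the genes with the largest falls and higher DMSO levels. Its 3 triptolide wells at 10000 nM held 0.158, 0.109 and 0.158 CPM, and its DMSO wells ran from 7.01 through 10.7 to 13.7 CPM. The groups did not overlap, and the log2(Fold Change) was -6.23 ± 0.19 (SE; edgeR adjusted p = 8e-19). ZNF230 had 0.040, 0.218 and 0 CPM with triptolide, against a DMSO median of 5.57 CPM, and fell by 5.93 ± 0.54 on the log2 scale (edgeR adjusted p = 4.23e-10). ZNF835, which has no KRAB box, had 2 counts in all at 10000 nM and a 62.0-fold lower level (exact Poisson interval 17.2 to 512). ZNF581, with 4 fingers and among the most abundant of these genes, held 0.711, 0.436 and 0.910 CPM, against 18.7 to 30.2 CPM in DMSO wells, and fell by 5.12 ± 0.22 on the log2 scale (edgeR adjusted p = 4.04e-16).

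The 3 genes higher with triptolide at 10000 nM were ZNF738, ZNF358 and ZNF428. ZNF358, with 9 fingers and no KRAB box, held 90.0, 102 and 114 CPM, against 27.2, 37.4 and 51.3 CPM in the lowest, median and highest DMSO wells. Every triptolide well was above every DMSO well, and the log2(Fold Change) was 1.44 ± 0.15 (edgeR adjusted p = 6.03e-09). ZNF428, with 1 finger, held 80.2, 90.7 and 91.2 CPM, against 15.8, 32.4 and 44.7 CPM, a log2(Fold Change) of 1.43 ± 0.15 (edgeR adjusted p = 1.03e-08). ZNF738, a KRAB gene with 5 fingers, held 4.35, 4.46 and 5.50 CPM, against 1.13, 1.57 and 2.25 CPM, a log2(Fold Change) of 1.62 ± 0.16 (edgeR adjusted p = 1.71e-09). Their direction depends on the scaling: scaled to mitochondrial mRNAs, all 3 were below DMSO, at -1.44 for ZNF358, -1.44 for ZNF428 and -1.19 for ZNF738. All 3 also share exon bases with another annotated gene, as do 148 of the 246 genes, and whether the counting used the strand of the reads is not given in the sources used here. Among the 83 tested genes that share no exon bases, 75 were lower and the other 8 were not called. That subset was added after these values were seen and leaves out the 3 higher genes by its definition, so it could hold none called higher. Whether reads of overlapping genes had a part in the 3 rises was not tested.

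Another 24 tested genes were not called at 10000 nM, of which 18 have a KRAB box. ZNF544, the second most abundant zinc finger gene of the chromosome, held 28.3, 28.2 and 28.2 CPM, against 31.5, 41.7 and 49.2 CPM in the lowest, median and highest DMSO wells. Its wells did not overlap those of DMSO, but the log2(Fold Change) of -0.55 ± 0.11 (edgeR adjusted p = 0.000119) did not pass 1. ZNF331, an imprinted gene, held 14.7, 11.3 and 12.1 CPM, against 14 to 21.8 CPM, a log2(Fold Change) of -0.55 ± 0.10 (edgeR adjusted p = 3.65e-05). ZNF568, a KRAB gene known from mouse placental development, held 15.1, 13.5 and 14 CPM, against 7.01 to 14.3 CPM, a log2(Fold Change) of 0.28 ± 0.12 (edgeR adjusted p = 0.0364). ZNF146 held 17.2, 17.1 and 12.6 CPM and, unlike these 3, was called lower (-2.30 ± 0.36, edgeR adjusted p = 3.54e-06). In the scaling used throughout, ZNF544, ZNF331 and ZNF568 thus changed by less than 2-fold at a dose where 187 others were called lower. Scaled to mitochondrial mRNAs, all 214 tested genes were called lower, these 3 among them.

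At 100 nM, where well 2 was the shallowest of all, the 4 genes called higher were ZNF428 and the low genes ZNF382, ZNF233 and ZNF418. The last 3 rested on 31, 39 and 21 counts over the 3 wells, with ZNF382 and ZNF233 chosen here after their values were seen. ZNF382 was not tested at 10000 nM against the same DMSO wells. It thus passed the count filter at 100 nM only through the triptolide wells, where it was high, and its call is a description. ZNF233 held 1.24, 0.000 and 0.441 CPM, against a DMSO median of 0.147 CPM, and was not called without well 1 (edgeR adjusted p = 0.319).

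Homoharringtonine raised most of the zinc finger mRNAs. At 10000 nM, 150 of 219 tested genes were higher and 14 lower, with a median log2(Fold Change) of 1.51. Over all 19329 genes tested, 24.1% were higher and 22.8% lower, with a median of -0.02. The count filter was run for each comparison, and 27 zinc finger genes were not tested here, against 32 with triptolide at 10000 nM. Genes scarce in DMSO wells, ZNF556, ZNF560 and ZNF229 among them, passed it only through the homoharringtonine wells, where they were high. At 1000 nM, 130 of 218 were higher and 12 lower (median 1.27), against 21.5% higher and 20.8% lower over all genes. At 100 nM, 98 of 217 were higher and 8 lower (median 0.94), against 15.3% and 19.5%. Of 217 genes tested at all 3 doses, 88 were higher at each of them, again in fits that share the DMSO wells. At 10000 nM all 3 wells lay above every DMSO well for 150 of 219 genes, against 28.7% of all genes tested.

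The base composition of some homoharringtonine libraries differed from that of most DMSO libraries. The slope of a library's deviations on GC content, in log2 units per 10 percentage points, ran from -0.406 to -0.292 in the 3 wells at 10000 nM from -0.393 to 0.115 at 1000 nM, from -0.272 to 0.045 at 100 nM and from -0.308 to 0.210 in the DMSO wells, so that 2 of the 9 wells lay outside the DMSO range. With that slope as a covariate, 108 genes were higher at 10000 nM, 106 at 1000 nM and 82 at 100 nM, and the median at 10000 nM was 1.0. A GC content of 41.3% to 57.5% was a range set by the zinc finger genes themselves. In it, 135 of 179 zinc finger genes (75.4%) were higher at 10000 nM, against 22.8% of the 11935 other genes tested. The range is wide and genes were not matched by GC content within it, so it cannot show the part of base composition, which was not tested.

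The rises described next were the 6 largest among called genes with a mean of at least 1 CPM over the wells compared, and all 6 genes have a KRAB box. ZNF441, with 14 fingers, held 40.8, 35.7 and 59.2 CPM at 10000 nM, against 1.18, 1.99 and 12.3 CPM in the lowest, median and highest DMSO wells, the highest being the shallow well 10. The groups did not overlap, and the log2(Fold Change) was 4.29 ± 0.24 (edgeR adjusted p = 5.17e-14). ZNF844, with 6 fingers, held 105, 105 and 124 CPM, against a DMSO median of 6.01 CPM, a log2(Fold Change) of 4.15 ± 0.21 (edgeR adjusted p = 1.7e-14). ZNF878, with 14 fingers, held 10.8, 11.1 and 12.9 CPM, against a DMSO median of 0.456 CPM, a log2(Fold Change) of 4.43 ± 0.44 (edgeR adjusted p = 2.34e-09). These 3 genes and ZNF44, at 3.76 ± 0.14 (edgeR adjusted p = 7.16e-17), lie in the same position group, between 11483427 and 12640098.

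ZNF160, with 20 fingers, reached a higher level. It held 211, 208 and 261 CPM at 10000 nM, against 9.82, 14 and 42.0 CPM in DMSO wells, a log2(Fold Change) of 3.9 ± 0.20 (edgeR adjusted p = 2.1e-14). Already at 100 nM its wells held 152, 133 and 108 CPM. ZNF222, with 8 fingers, held 57.8, 59.5 and 66.3 CPM at 10000 nM, against a DMSO median of 3.78 CPM, a log2(Fold Change) of 3.89 ± 0.16 (edgeR adjusted p = 2.82e-16).

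A few genes with a median at or near 0 in DMSO wells held more reads with homoharringtonine, and were chosen here for that after their values were seen. ZNF556, a KRAB gene with 9 fingers, had 2 counts over the 18 DMSO wells, and held 0.903, 0.671 and 0.757 CPM with homoharringtonine at 100 nM and 0.905, 1.21 and 0.823 CPM at 10000 nM. ZNF560, with 13 fingers, had 8 counts over the DMSO wells and held 0.523, 0.787 and 0.537 CPM at 10000 nM. ZNF229, with 16 fingers, had counts in 15 of the 18 DMSO wells, with a median of 0.0984 CPM, and held 1.73, 1.19 and 1.07 CPM at 100 nM and 4.04, 5.01 and 4.30 CPM at 10000 nM. Its highest DMSO well, at 1.75 CPM, lay above the 3 wells at 100 nM and below those at 10000 nM. These values are descriptions, since the genes were picked for the rise.

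The 14 genes lower with homoharringtonine at 10000 nM included 5 of the 32 tested genes without a KRAB box. ZNF71, a KRAB gene with 13 fingers, held 7.65, 6.85 and 7.07 CPM, against 21.8, 28.3 and 34.6 CPM in DMSO wells, with no overlap and a log2(Fold Change) of -1.96 ± 0.14 (edgeR adjusted p = 3.43e-12). ZNF358 held 8.85, 7.53 and 6.41 CPM, below every DMSO well, and fell by 2.31 ± 0.21 on the log2 scale (edgeR adjusted p = 4.98e-10). In the scaling used throughout it was thus higher with triptolide and lower with homoharringtonine, the reverse of most of the other genes, and scaled to mitochondrial mRNAs it was lower with triptolide as well. ZNF835 held 0.141, 0.052 and 0.143 CPM, against a DMSO median of 1.60 CPM, and fell by 3.78 ± 0.38 (edgeR adjusted p = 3.96e-09). ZNF792, ZNF324B and ZNF524 fell by 2.61 ± 0.33, 1.84 ± 0.14 and 1.46 ± 0.20, each with an edgeR adjusted p at or below 5.49e-07. ZNF524 did not pass a log2(Fold Change) of 1 with the GC slope as a covariate (-0.90).

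**Figure D3:**
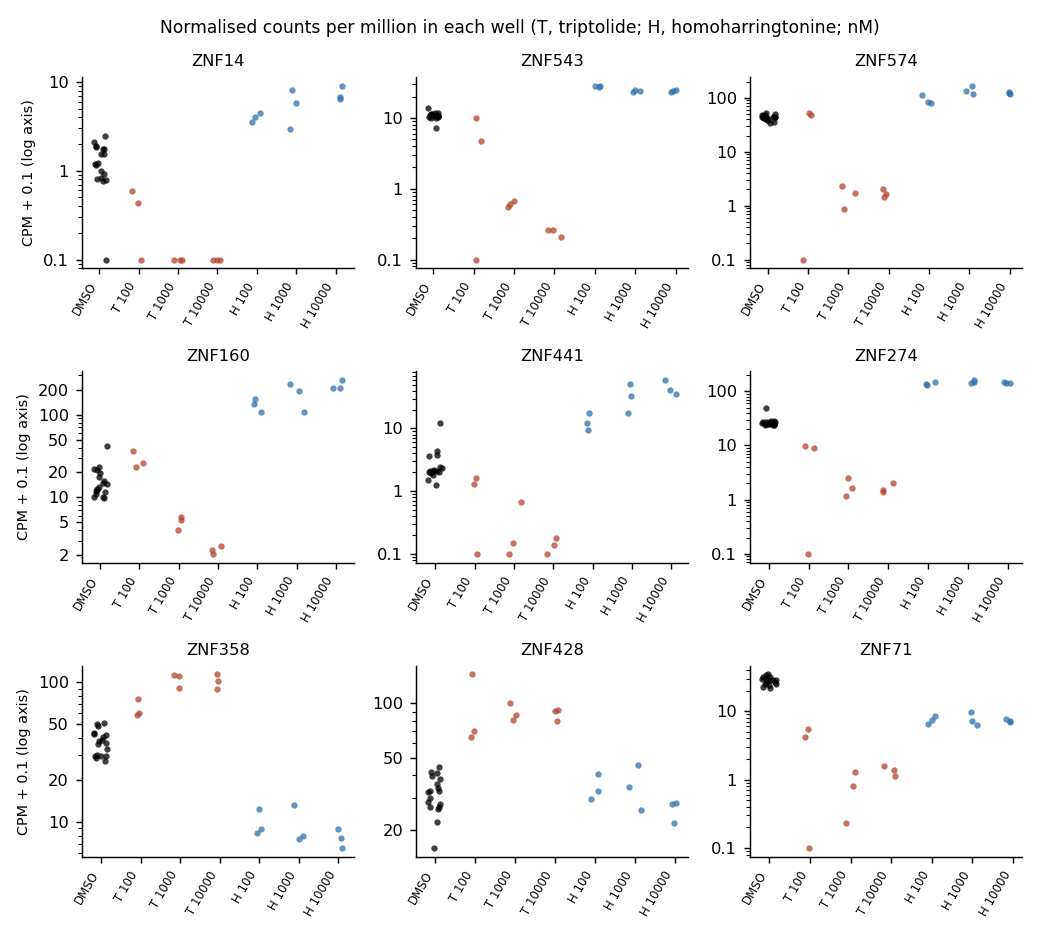
Normalised CPM plus 0.1 (log axis) in each DMSO, triptolide (T) and homoharringtonine (H) well at 100, 1000 and 10000 nM, for 9 zinc finger genes of chromosome 19; each point is a well. ZNF14, ZNF543, ZNF574, ZNF160, ZNF441 and ZNF274 sit below DMSO with triptolide at 10000 nM and above it with homoharringtonine, except that ZNF14 is also at 0 in the shallow DMSO well 10; ZNF358 and ZNF428 sit above DMSO with triptolide in this scaling and below it when scaled to mitochondrial mRNAs, and ZNF71 sits below DMSO with both; the triptolide 100 nM well at the 0.1 floor is the shallow well 2.

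Set directly against each other at matched doses, most zinc finger mRNAs were lower in triptolide wells than in homoharringtonine wells. At 10000 nM, 191 of 214 tested genes were lower with triptolide and 5 higher, with a median difference of -4.33 on the log2 scale, against 38.8% lower and 28.9% higher over all genes tested. At 1000 nM, 185 of 212 were lower and 2 higher (median -4.03), against 35.8% and 22.9%. At 100 nM, 151 of 209 were lower and 5 higher (median -1.75), against 29.0% and 19.1%.

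Between the compounds at 10000 nM, ZNF441 was lower with triptolide (edgeR adjusted p = 1.22e-09), with 3 counts over the triptolide wells and 6693 over the homoharringtonine wells. ZNF14 and ZNF229 had 0 counts in the triptolide wells and 1069 and 632 in the homoharringtonine wells. ZNF441, ZNF14 and ZNF229 thus passed the count filter through the homoharringtonine wells, and their differences are descriptions. The genes higher with triptolide were ZNF358 (3.75 ± 0.14, edgeR adjusted p = 6.84e-10), ZNF428 (1.76 ± 0.11, edgeR adjusted p = 5.73e-08), ZNF524 (1.17 ± 0.17, edgeR adjusted p = 6.92e-05), ZNF738 (1.15 ± 0.15) and ZNF726 (1.09 ± 0.25, edgeR adjusted p = 0.0017). ZNF726, chosen after its value was seen, held 1.5, 2.03 and 1.90 CPM with triptolide and 0.865, 1.10 and 0.626 CPM with homoharringtonine. With library sizes alone, 2 genes were called higher; scaling to mitochondrial mRNAs was not run for this comparison.

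Within both compounds more of these genes moved further at the higher dose than moved back. With triptolide, 92 of 162 tested genes were lower at 10000 nM than at 100 nM and 1 was higher (median -1.31), against 18.5% lower and 12.7% higher over all genes tested. The count filter used only these wells, so genes near 0 at 10000 nM passed it through the wells at 100 nM. ZNF574, with 18 fingers and no KRAB box, held 48.9, 0 and 52.6 CPM at 100 nM and 1.58, 1.34 and 1.94 CPM at 10000 nM, a difference of -4.91 ± 0.24 (edgeR adjusted p = 3.12e-11). Its well at 0 was the shallow one, and the other wells at 100 nM lay within or just above the DMSO range of 34.7 to 52.1 CPM. ZNF222 was lower by 4.59 ± 0.40 (edgeR adjusted p = 4.02e-08), from 5.96, 12.0 and 4.41 CPM to 0.237, 0.290 and 0.119 CPM, the 12.0 CPM being 1 count in the shallow well 2. The gene higher at 10000 nM was ZNF738 (1.41 ± 0.29, edgeR adjusted p = 0.000551), which was not called by DESeq2 (adjusted p = 0.383).

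With homoharringtonine, 65 of 216 tested genes were higher at 10000 nM than at 100 nM and 7 lower (median 0.59), against 15.4% higher and 8.89% lower over all genes tested. ZNF418, with 16 fingers, held 0.387, 0.580 and 0.532 CPM at 100 nM and 4.61, 4.67 and 5.30 CPM at 10000 nM, a difference of 3.28 ± 0.20 (edgeR adjusted p = 6.37e-06). ZNF878 rose from 2.07, 1.34 and 0.897 CPM to 10.8, 11.1 and 12.9 CPM (3.0 ± 0.26, edgeR adjusted p = 3.32e-05). In the other direction, ZNF792 held 6.43, 7.51 and 6.47 CPM at 100 nM and 1.55, 2.18 and 1.83 CPM at 10000 nM (-1.88 ± 0.17, edgeR adjusted p = 3.93e-05). ZNF444, with 4 fingers and no KRAB box, held 63.2, 63.6 and 80.2 CPM at 100 nM, above its DMSO wells of 22 to 38.8 CPM, and 21.8, 19.7 and 18.5 CPM at 10000 nM (-1.79 ± 0.13, edgeR adjusted p = 1.54e-05).

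The other 4 compounds moved few of these genes. With nilotinib at 10000 nM, 3 of 214 tested genes were called, against 3.1% of all genes tested. ZNF792 held 26.5, 26.4 and 25.2 CPM, above every DMSO well (highest 17.2 CPM), a log2(Fold Change) of 1.21 ± 0.23 (edgeR adjusted p = 0.000734). ZNF554, with 7 fingers, held 3.25, 2.67 and 3.32 CPM, above the DMSO highest of 1.97 CPM (1.14 ± 0.19, edgeR adjusted p = 0.00014). ZNF540 was lower, at 0.244, 0.139 and 0.139 CPM against a DMSO median of 0.476 CPM (-1.47 ± 0.36, edgeR adjusted p = 0.00745), and was not called without well 2 or without well 3. At 1000 nM ZNF792 was the 1 gene called, at 28.9, 23.4 and 26.2 CPM (1.22 ± 0.24, edgeR adjusted p = 0.0031), against 1.17% of all genes.

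With MK-2206 at 10000 nM, 2 of 214 genes were called, against 0.716% of all genes tested. ZNF114, with 3 fingers, held 8.01, 8.37 and 8.12 CPM, against 0.000, 3.52 and 4.50 CPM in DMSO wells (1.20 ± 0.15, edgeR adjusted p = 2.1e-05). ZNF554 held 4.28, 3.48 and 3.60 CPM (1.43 ± 0.19, edgeR adjusted p = 2.9e-05). All wells of both genes were above every DMSO well.

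In the remaining comparisons edgeR called 0 zinc finger genes, so their shares with an unadjusted p under 0.05 are given beside the same share of all genes. With nilotinib at 100 nM, 28 of 214 (13.1%, against 23.8% of all genes) had such a p and DESeq2 called 0, and edgeR called 1.47% of all genes. With MK-2206 they were 11 (5.14%, against 11.2%) at 1000 nM and 6 (2.80%, against 7.79%) at 100 nM, DESeq2 called 0 at both doses, and edgeR called 0.286% and 0.0054% of all genes. With pyrazolanthrone they were 28 (13.1%, against 23.2%) at 10000 nM, 5 (2.34%, against 5.74%) at 1000 nM and 59 (27.6%, against 22.9%) at 100 nM. DESeq2 called 0, 0 and 1 zinc finger genes there, and edgeR called 1.23%, 0.0% and 0.842% of all genes. With miglitol they were 83 (38.8%, against 21.3%) at 10000 nM, 6 (2.80%, against 8.49%) at 1000 nM and 13 (6.07%, against 5.17%) at 100 nM, DESeq2 called 0 at each dose, and edgeR called 0.0%, 0.0162% and 0.0% of all genes. The zinc finger gene with the smallest adjusted p with pyrazolanthrone at 10000 nM was ZNF419 (0.78 ± 0.17, edgeR adjusted p = 0.00532), which did not pass a log2(Fold Change) of 1. With miglitol at 10000 nM it was ZNF808 (0.78 ± 0.24, edgeR adjusted p = 0.23), where 179 of 214 zinc finger genes lay above 0 with a median of 0.39, against 9444 of 18519 genes and a median of 0.01 over all genes, and the libraries' GC slope ran from -0.264 to -0.180; the part of base composition in that median was not tested.

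At 10000 nM, most of the tested genes were lower with triptolide whether or not they have a KRAB box. With homoharringtonine at that dose, most of those with the box, but not most of those without it, were higher. With triptolide at 10000 nM, 164 of 183 genes with the box (89.6%) were lower and 1 higher (median -2.73), and 23 of 31 without it (74.2%) were lower and 2 higher (median -2.30). At 100 nM, 75 of 184 with the box (40.8%) and 15 of 31 without it (48.4%) were lower, with medians of -0.81 and -1.01. With homoharringtonine at 10000 nM, 139 of 187 with the box (74.3%) were higher and 9 lower (median 1.74), and 11 of 32 without it (34.4%) were higher and 5 lower (median 0.43). Of the zinc finger genes on other chromosomes, 181 of 242 were lower with triptolide (median -2.17) and 102 of 248 higher with homoharringtonine (median 0.75). Of the other protein-coding genes of chromosome 19, 200 of 860 were lower with triptolide and 189 of 905 higher with homoharringtonine, with medians of 0.38 and -0.16. The zinc finger genes of other chromosomes thus had medians of the same sign but nearer 0 at 10000 nM, and the neighbours on chromosome 19 did not. With triptolide at 100 nM the order was the other way, with a median of -0.93 and 115 of 243 lower on other chromosomes, against -0.82 and 90 of 215 on chromosome 19. The differences between these sets were not tested. The sets also differ in KRAB boxes, found in 211 of 246 genes on chromosome 19 and 125 of 262 on other chromosomes, and the latter were not split by the box.

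**Figure D4:**
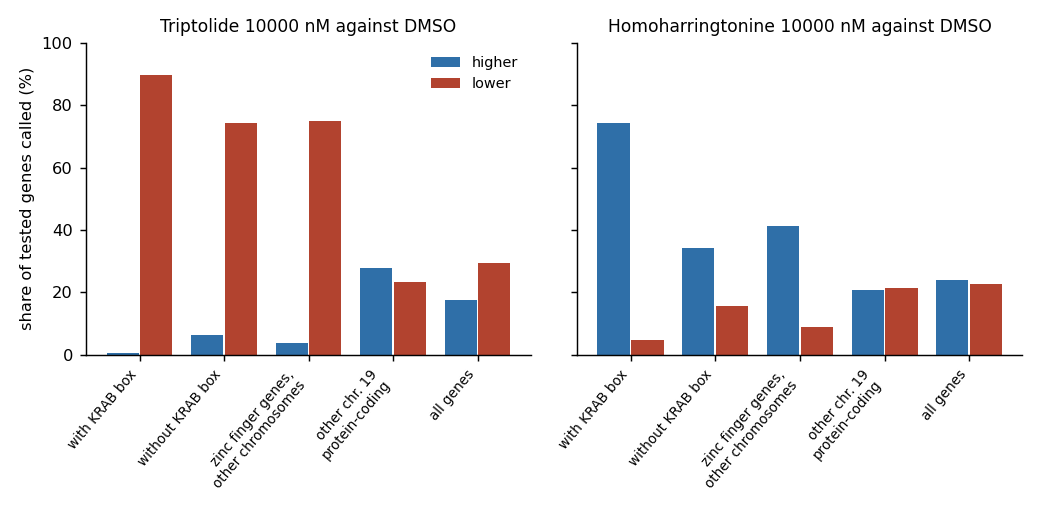
Share of tested genes (%) called higher or lower than DMSO at 10000 nM, for zinc finger genes of chromosome 19 with and without a KRAB box, those of other chromosomes, other protein-coding genes of chromosome 19 and all genes. With triptolide 89.6% of the KRAB genes of chromosome 19 are lower, against 29.3% of all genes, and with homoharringtonine 74.3% are higher, against 24.1%.

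The position groups had medians of the same sign with triptolide, but not all of them with homoharringtonine. Each of the 9 groups with at least 4 tested genes had a median below 0 with triptolide at 10000 nM. The group between 11483427 and 12640098, which runs from ZNF653 to ZNF791 and holds 25 genes, had all 23 tested genes lower with triptolide (median -3.72) and 22 of 23 higher with homoharringtonine (median 2.43). The group at the long-arm end, 59 genes from ZNF628 to ZNF446, had 52 of 59 lower with triptolide (median -2.97), 31 higher with homoharringtonine and 8 lower (median 1.10). The group between 19668796 and 24129968 held 37 genes, of which 9 reached 1 TPM in DMSO wells. There, 11 of 15 tested genes were lower with triptolide and 6 of 16 higher with homoharringtonine (median 0.76). The 5 genes from ZNF302 to ZNF792, between 34677639 and 34964229, had a median of -0.43 with homoharringtonine, with 2 higher and 1 lower.

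**Figure D5:**
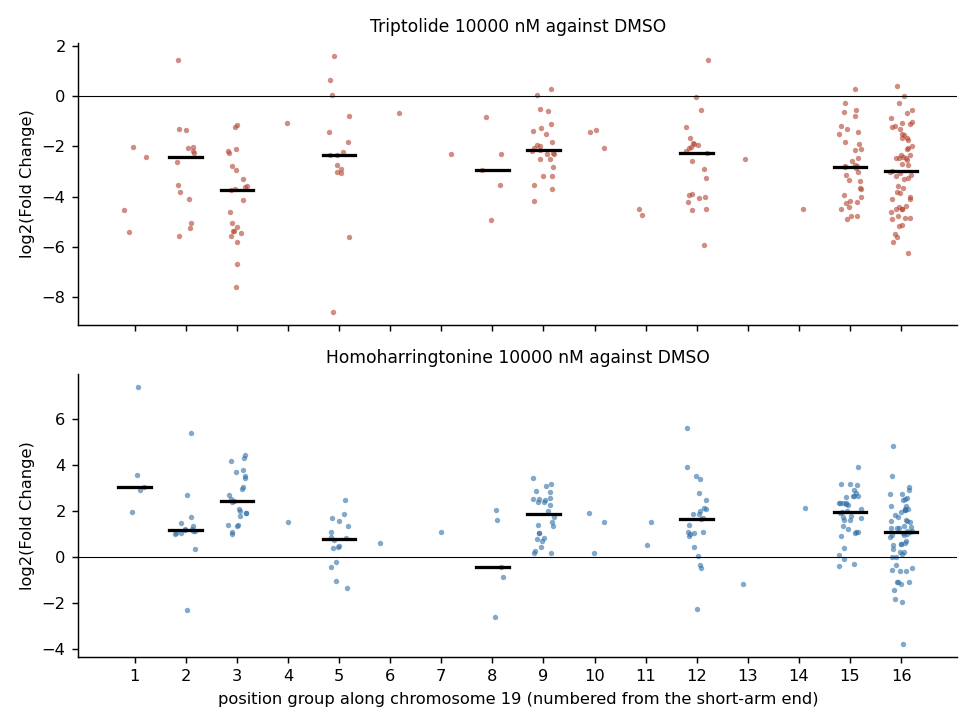
log2(Fold Change) against DMSO at 10000 nM of the tested zinc finger genes (points) in the 16 position groups of chromosome 19, numbered from the short-arm end, with the group median as a line where at least 5 genes were tested; triptolide above and homoharringtonine below. The group numbered 3 has medians of -3.72 and 2.43, and the group numbered 8 has -2.95 and -0.43.

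Among the zinc finger genes themselves, the size of the change followed their features only weakly. Across 214 genes with triptolide at 10000 nM, Spearman's rho of the log2(Fold Change) was -0.02 with GC content, 0.01 with transcript length, 0.00 with the number of fingers, -0.07 with the DMSO level and 0.19 with the number of exons. Across 219 genes with homoharringtonine, it was -0.24 with GC content, 0.11 with transcript length, 0.14 with the number of fingers, -0.14 with the DMSO level and 0.16 with the number of exons. Over all 18923 genes with a GC value, rho with GC content was also -0.25 with homoharringtonine. Genes are not independent replicates, and duplicated zinc finger genes share sequence, so these values are descriptions.

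Zinc finger genes with a known role mostly followed the majority. ZNF274, which brings SETDB1 and TRIM28 to the 3′ ends of other zinc finger genes, held 1.90, 1.31 and 1.42 CPM with triptolide at 10000 nM and 143, 146 and 142 CPM with homoharringtonine, against a DMSO median of 25.8 CPM. It fell by 4.08 ± 0.17 (edgeR adjusted p = 2.8e-16) and rose by 2.46 ± 0.09 (edgeR adjusted p = 3.69e-17). ZNF350 (ZBRK1), a partner of BRCA1, fell by 3.14 ± 0.33 and rose by 3.19 ± 0.17, from a DMSO median of 3.29 CPM. ZNF224, a KRAB repressor with 18 fingers, fell by 2.08 ± 0.41 and rose by 2.47 ± 0.26.

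The retrotransposon repressors ZNF91 and ZNF93, which bind SVA and LINE-1 elements, were low in these cells. ZNF91, with 31 fingers, held 0.277, 0.363 and 0.554 CPM with triptolide at 10000 nM and 5.41, 5.30 and 7.02 CPM with homoharringtonine, against 1.18, 1.89 and 3.89 CPM in the lowest, median and highest DMSO wells. Neither group overlapped the DMSO wells, at -2.33 ± 0.38 (edgeR adjusted p = 8e-06) and 1.56 ± 0.24 (edgeR adjusted p = 3.51e-06). ZNF93, with a DMSO median of 0.145 CPM and a highest value of 1.75 CPM in the shallow well 10, had 0 counts with triptolide at 10000 nM, at least 4.07-fold lower, and held 0.805, 0.367 and 0.573 CPM with homoharringtonine (1.86 ± 0.41, edgeR adjusted p = 0.000263). ZNF331 was not called with homoharringtonine either (-0.29 ± 0.09), and ZNF568 was higher (1.37 ± 0.11, edgeR adjusted p = 3.14e-11).

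Of 22 listed genes of the corepressor machinery that KRAB proteins work through, 4 were higher (18.2%) and 5 lower (22.7%) with triptolide at 10000 nM, with a median log2(Fold Change) of 0.06, against 17.5% and 29.3% of all genes. With homoharringtonine 2 were higher (9.09%) and 4 lower (18.2%), with a median of -0.02, against 24.1% and 22.8%. TRIM28 itself held 627 ± 34.4 CPM with triptolide and 556 ± 22.1 CPM with homoharringtonine (SD, n = 3), against 562 ± 67.6 CPM in DMSO wells, and was called with neither (0.16 ± 0.10 and -0.02 ± 0.10). SETDB1 followed the zinc finger genes, at 6.72 ± 0.14 and 130 ± 3.18 CPM, against 29.5 ± 3.5 CPM in DMSO (-2.15 ± 0.12, edgeR adjusted p = 3.07e-14, and 2.12 ± 0.08, edgeR adjusted p = 5.25e-17). ATF7IP, the partner that stabilises SETDB1, was also lower with triptolide (-3.42 ± 0.26) and higher with homoharringtonine (1.86 ± 0.17). The HP1 gene CBX1, HDAC1, CHD3 and UHRF1, a factor in DNA methylation, went other ways: CHD3 and HDAC1 were higher with triptolide (1.99 ± 0.09 and 1.41 ± 0.07), and CBX1 and UHRF1 lower with homoharringtonine (-1.19 ± 0.09 and -2.55 ± 0.16). Scaled to mitochondrial mRNAs, all 22 genes lay below DMSO with triptolide, CHD3 at -0.84 and HDAC1 at -1.41.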

How the data were processed

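Population RNA-seq of 72 wells of U2OS cells was read from deposited gene tables. The authors aligned stranded poly(A) reads to GRCh38 and deposited RSEM expected counts, which are not normalised and were rounded to whole numbers here, TPM values, used here for levels in DMSO wells, and FPKM values, which were not used here. The version and strand setting of RSEM are not given in the sources used here. RSEM divides reads shared by similar genes by estimation, so near-identical zinc finger genes are uncertain. Doses were taken from the labels.

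The members and gene lists were chosen with earlier results of these data known. Protein-coding genes of chromosome 19 with a numbered ZNF symbol were taken from GENCODE 44, which holds 56104 of the 60371 genes listed. KRAB boxes (profile E-value of 0.001, pyhmmer 0.12.3) and C2H2 fingers were found in proteins translated from GENCODE coding sequences. Counts were tested with edgeR 4.0.16 (R 4.3.3; glmQLFit and glmQLFTest, TMM factors over all wells, filterByExpr with a minimum count of 10) in a separate fit for each of 23 comparisons, with Benjamini-Hochberg adjustment over all genes tested. The fits were tested on simulated data. Shallow wells were kept in them. Alternatives were DESeq2 1.42.0, library sizes only, no count filter, a replicate block, GC slope of the library as a covariate, scaling to mitochondrial mRNAs, and leaving out wells. Of 207 pairs of wells within groups, the most alike still differed by 1.35 times the sampling noise (chi-square per degree of freedom), so none was taken as a repeat.

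Genes were named by rule: with triptolide and homoharringtonine at 10000 nM, the 6 largest rises and falls among called genes of at least 1 CPM whose treated wells all lay above, or all below, the DMSO median; between these compounds, the 3 largest differences each way without overlap; between doses, the 2 largest each way; for each other compound at 10000 nM, up to 2 each way by adjusted p, or the smallest; the 5 most abundant genes; and 7 genes of known role. Exceptions are marked in the text.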

Additional observations from a re-analysis of the deposited data

How the results depend on the processing

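The fall with triptolide at 10000 nM and the rise with homoharringtonine at 10000 nM kept their direction under each alternative run, with 176 to 214 genes called lower and 108 to 158 called higher. Numbers of genes called moved by over 1.5 times as follows, and the cause was not tested. With the GC slope as a covariate, 8 genes were higher with triptolide at 100 nM. With library sizes only, the genes higher with triptolide were 2 at 100 nM and 1 at 10000 nM against DMSO, and 3 at 100 nM and 2 at 10000 nM against homoharringtonine. Scaled to mitochondrial mRNAs, 0 were higher with triptolide at 100, 1000 and 10000 nM by edgeR and 202 were lower at 100 nM, and the log2(Fold Change) at 10000 nM reversed for ZNF738 (-1.19), ZNF358 (-1.44) and ZNF428 (-1.44). With DESeq2, 1 gene was called with pyrazolanthrone at 100 nM, 2 were higher with triptolide than homoharringtonine at 100 nM, and 0 were higher and 61 lower with triptolide at 10000 nM than at 100 nM. Without libraries under 10000000 counts, 1 was called with pyrazolanthrone at 100 nM and 3 were higher with triptolide than homoharringtonine at 100 nM. With a replicate block (DMSO wells 1 to 3 only), 58 were lower with triptolide at 100 nM, 3 were higher than with homoharringtonine at 100 nM, and 15, 0, 14 and 37 were called with pyrazolanthrone 10000 nM, nilotinib 1000 nM, nilotinib 10000 nM and miglitol 10000 nM. Same-numbered wells did not deviate together (mean correlation -0.02 over 16 pairs, 7 above 0.1), so the numbers were not taken as pairs. Leaving out 1 replicate at a time gave 2 to 5 genes higher with triptolide at 100 nM against DMSO and 2 to 5 against homoharringtonine, 1 to 5 higher with triptolide at 10000 nM than at 100 nM, 0 to 4 called with pyrazolanthrone at 100 nM, 0 to 18 with nilotinib at 100 nM (18 without well 1) and 0 to 1 with MK-2206 at 1000 nM (1 without well 2). The 70767 counts of triptolide 100 nM well 2 limit what that dose can show for genes this scarce.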
